A study of Mus musculus with 34 samples.

Results

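The genes described here are the 7 mouse genes for inhibitors of cyclin-dependent kinases (CDKs), Cdkn1a, Cdkn1b, Cdkn1c, Cdkn2a, Cdkn2b, Cdkn2c and Cdkn2d. They were found by symbol and fill 8 of the 23812 rows of the RNA table, because Cdkn2d stands on 2 rows. All 7 were found, and the family was chosen with its RNA values in view, so its levels in activated and resting cells are given as a description. The number of members past the threshold of the fit over all genes is given once, beside that of all genes, and supports nothing. The series holds 34 samples, nearly all of them splenic B cells from C56BL/6J mice (the strain as the series spells it) aged 6 to 8 weeks, taken by magnetic selection as cells without CD43 (CD43-). The activated cells had been cultured with lipopolysaccharide (LPS) from Salmonella typhimurium at 10 µg per ml for 3 days, and the resting cells (rB in the labels) were the control. The labels name no genetic change in either group. RNA-seq came from 2 activated and 2 resting samples, while the lists of open chromatin (FAIRE-seq), reporter enhancers (STARR-seq), histone marks (H3K27ac and H3K4me3 ChIP-seq) and chromatin contacts (Hi-C) came from activated cells alone. For the resting samples the culture and treatment labels give the same LPS text as for activated cells, and their handling is therefore known only as far as their names and the series design state it.

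CDK inhibitors hold back the kinases that drive a cell through its division cycle. The CIP/KIP proteins p21 (Cdkn1a), p27 (Cdkn1b) and p57 (Cdkn1c) bind whole cyclin and CDK complexes, chiefly those of CDK2, while the INK4 proteins p16 (Cdkn2a), p15 (Cdkn2b), p18 (Cdkn2c) and p19Ink4d (Cdkn2d) bind CDK4 and CDK6 and keep them from the D-type cyclins. Cdkn2a also encodes p19Arf, which is read from its own upstream first exon in another frame and holds the ubiquitin ligase Mdm2 away from p53. In resting lymphocytes p27 is a well-known keeper of quiescence, p21 is a classical target of p53, and p18 is known in mice for its part in the making of plasma cells.

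The start regions of the family differ in base composition, and those of the 3 genes with the largest RNA difference are shown because peaks lie on them in activated cells. RefSeq windows of 300 bases, covering 250 bases before and 50 after a start, matched 6 of the 7 genes with 9 windows, and none was matched for Cdkn1c. Each window is written 5′ to 3′ on the gene's own strand, in the GRCm38.p6 build, which is not the mm9 build of the peak lists. Capitals mark matches, on either strand, to E2F motifs (TTTCCCGC, TTTCGCGC, TTTGCCGC or TTTGGCGC), to the p53 decamer consensus, or to TGACGT, the core of the cyclic AMP response element.
Cdkn2a, p19Arf start (chr4:89294570-89294869, minus strand): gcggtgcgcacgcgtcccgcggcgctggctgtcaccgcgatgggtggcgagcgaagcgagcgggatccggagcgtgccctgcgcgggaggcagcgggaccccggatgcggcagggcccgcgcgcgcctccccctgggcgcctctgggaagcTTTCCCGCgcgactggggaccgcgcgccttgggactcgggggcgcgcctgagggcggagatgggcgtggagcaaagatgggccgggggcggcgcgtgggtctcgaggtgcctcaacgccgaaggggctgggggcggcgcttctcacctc
Cdkn2a, p16 start (chr4:89282143-89282442, minus strand): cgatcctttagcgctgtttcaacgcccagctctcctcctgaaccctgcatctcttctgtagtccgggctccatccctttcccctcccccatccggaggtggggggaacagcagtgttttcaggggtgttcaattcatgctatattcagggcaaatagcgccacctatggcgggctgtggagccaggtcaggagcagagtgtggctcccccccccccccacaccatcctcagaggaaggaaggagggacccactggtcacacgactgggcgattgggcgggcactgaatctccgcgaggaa
Cdkn2b (chr4:89310983-89311282, minus strand): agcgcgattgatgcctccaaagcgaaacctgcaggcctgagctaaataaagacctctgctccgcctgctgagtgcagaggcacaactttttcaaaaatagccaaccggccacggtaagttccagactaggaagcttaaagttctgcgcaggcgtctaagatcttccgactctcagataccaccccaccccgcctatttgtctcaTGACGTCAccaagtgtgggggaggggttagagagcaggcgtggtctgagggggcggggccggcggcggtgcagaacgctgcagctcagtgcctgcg
Cdkn1a, upstream start (chr17:29090729-29091028, plus strand): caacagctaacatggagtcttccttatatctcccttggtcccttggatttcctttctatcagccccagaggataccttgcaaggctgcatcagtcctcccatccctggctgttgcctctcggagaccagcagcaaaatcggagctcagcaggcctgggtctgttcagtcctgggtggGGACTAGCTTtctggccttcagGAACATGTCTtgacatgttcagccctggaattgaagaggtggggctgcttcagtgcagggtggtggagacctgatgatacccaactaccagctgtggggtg
Cdkn1a, downstream start (chr17:29093519-29093818, plus strand): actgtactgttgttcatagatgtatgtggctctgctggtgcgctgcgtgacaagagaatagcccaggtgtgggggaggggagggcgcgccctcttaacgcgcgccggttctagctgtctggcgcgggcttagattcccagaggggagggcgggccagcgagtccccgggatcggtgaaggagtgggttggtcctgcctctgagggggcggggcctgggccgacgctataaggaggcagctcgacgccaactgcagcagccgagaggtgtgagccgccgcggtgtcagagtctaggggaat
Among 32841 RefSeq windows of this length 2.27% held an E2F motif, 8.36% a p53 decamer and 7.51% a TGACGT. The p19Arf start of Cdkn2a held 1 E2F match and the p16 start none. The upstream Cdkn1a window held 2 p53 decamers and the downstream window none. Among the windows not printed, that of Cdkn2d held 1 p53 decamer. The Cdkn2b window held 2 TGACGT matches that overlap each other on opposite strands. None of these matches overlaps a match to another of the motifs marked. The GTAAACA motif of FOXO factors, found in 3.65% of windows, was in none of the 9. A match describes letters and shows no binding.

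The pair of Cdkn2a starts and the pair of Cdkn1a starts were unlike each other in CpG content. The p19Arf window held 45 CpG dinucleotides, more than 98.1% of all windows, and the p16 window held 12, against a median of 7 over all windows. The upstream Cdkn1a window held 2 CpG, and the downstream window held 23, more than 78.5% of all windows. The windows of Cdkn1b, Cdkn2b and Cdkn2d held 30, 18 and 22. Those of Cdkn2c held 33 at the upstream start and 8 at the downstream start.

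RNA levels are given as FPKM (fragments counted per kilobase of gene model and relative to all fragments mapped in a sample), the unit the deposited values were treated as, which allows levels to be set side by side between genes. The 2 samples of each group are listed as replicate 1 and replicate 2. A log2 difference is the mean of log2(FPKM + 1) in activated samples minus that in resting samples, with the standard error (SE) of the limma fit over all genes. The labels do not say that the samples of a group came from separate mice or cultures, so that SEs and p-values reflect only how far these samples lie apart, and this may be technical scatter. In bulk samples fewer cells of a type and less RNA per cell cannot be told apart.

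Cdkn2a had the widest RNA difference of the family. It stood at 48.8 and 44.4 FPKM in activated cells, against 0.15 and 0.152 FPKM in resting cells, a log2 difference of 5.37 ± 0.15 (SE, n = 2 each). Both activated samples were far above both resting samples, in which the gene lay under 1 FPKM. The table has 1 value for the gene, so p16 and p19Arf transcripts cannot be told apart in it. In activated cells Cdkn2a ranked above 89.0% and 86.3% of the genes with at least 1 FPKM.

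Cdkn2b, which lies next to Cdkn2a and encodes p15, had 7.24 and 6.67 FPKM in activated cells, against 0.373 and 0.572 FPKM in resting cells, and the log2 difference was 2.44 ± 0.17 (SE, n = 2 each). Its activated level was a moderate one, above 35.5% and 31.5% of the genes with at least 1 FPKM. Cdkn2c, for p18, had 14.8 and 19.0 FPKM in activated cells and 7.79 and 7.26 FPKM in resting cells, with a log2 difference of 1.06 ± 0.17 (SE, n = 2 each). Both groups thus expressed Cdkn2c, and the activated pair was the higher.

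Cdkn2d was the INK4 gene with the opposite direction. Its row at chr9:21092908-21095653 (mm9) had 6.54 and 3.84 FPKM in activated cells and 8.81 and 10.7 FPKM in resting cells, a log2 difference of -0.83 ± 0.24 (SE, n = 2 each). The other row with this symbol, at chr9:123836860-123839607, had 3.95 and 4.01 FPKM in activated cells and 7.46 and 10.5 FPKM in resting cells, with a difference of -0.99 ± 0.19. The spans of 2746 and 2748 bases are of nearly equal length, but their sequences were not compared. Reads of near-identical copies could be split between them, so each Cdkn2d value is uncertain. In both rows the groups did not overlap.

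In the CIP/KIP branch, Cdkn1a (p21) had 33.2 and 18.1 FPKM in activated cells, against 1.9 and 1.48 FPKM in resting cells, a log2 difference of 3.25 ± 0.28 (SE, n = 2 each). The activated samples differed from each other here more than in any other gene of the family above 10 FPKM, and both still exceeded both resting samples. Cdkn1b (p27) had 39.8 and 43.3 FPKM in activated cells and 55.2 and 67.6 FPKM in resting cells, a log2 difference of -0.55 ± 0.19. It was high in every sample, above at least 85.9% of the genes with 1 FPKM or more. Cdkn1c (p57) lay under 1 FPKM in all 4 samples, at 0.228 and 0.227 FPKM in activated and 0.515 and 0.27 FPKM in resting cells, and did not pass the filter of at least 1 FPKM in at least 2 samples.

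**Figure D1:**
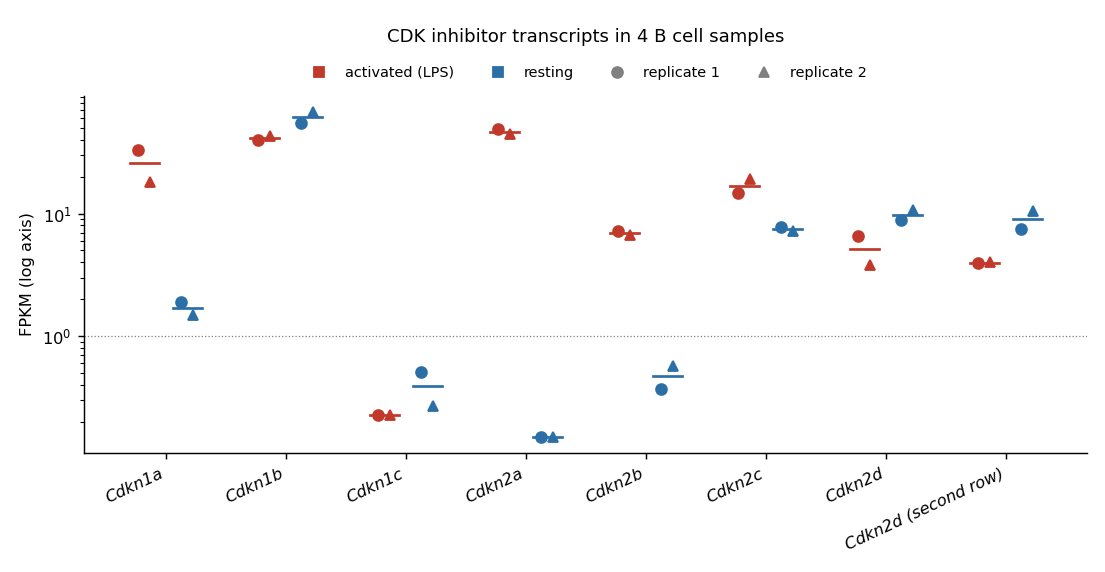
FPKM (log axis) of each CDK inhibitor row in the 2 activated samples (left, red) and the 2 resting samples (right, blue) of each pair, with a bar at the group mean and a dotted line at 1 FPKM. Cdkn2a, Cdkn1a and Cdkn2b stand far apart between the groups, at up to 48.8 FPKM in activated cells, while Cdkn1b lies close together at 39.8 to 67.6 FPKM.

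Of the 6 family members that passed the filter, 4 were past the threshold of an adjusted p of 0.05 as higher in activated cells (Cdkn1a, Cdkn2a, Cdkn2b and Cdkn2c) and 2 as lower (Cdkn1b and Cdkn2d). Over all 10863 genes tested, 54.4% passed it, 28.2% as higher and 26.2% as lower, and since the family was picked on this contrast nothing is read from its count. In 80.6% of all genes tested the groups did not overlap, as in the 6 members. Counting Cdkn2d by either of its rows, 5 members were past the threshold without resting replicate 1 (all but Cdkn1b) and 4 without resting replicate 2 (all but Cdkn1b and Cdkn2d). Without either activated replicate 3 were, since Cdkn1b was not past it and the filter left out Cdkn2a and Cdkn2b. Without a filter on low values Cdkn1b was not past it. The first Cdkn2d row was itself not past it without either resting replicate, without activated replicate 2 or without a filter, and in all of these but the fit without resting replicate 2 the gene was counted through its second row.

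The make-up of the family's RNA differed more than its sum. Adding the 7 genes, with the first row of Cdkn2d, gave 151.0 and 136.0 FPKM in activated cells and 74.8 and 88.0 FPKM in resting cells. The summed CIP/KIP level overlapped between the groups, at 73.2 and 61.6 FPKM in activated and 57.7 and 69.3 FPKM in resting cells. The summed INK4 level did not, at 77.3 and 73.9 FPKM in activated and 17.1 and 18.7 FPKM in resting cells.

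Cdkn1b made up 26.4% and 32.0% of the family's sum in activated cells, against 73.9% and 76.8% in resting cells, so that it was the leading member at rest. In activated cells Cdkn2a held 32.4% and 32.8% of the sum, against 0.201% and 0.173% in resting cells. Cdkn1a held 22.0% and 13.3% in activated cells and 2.54% and 1.68% in resting cells. In activated cells the order of mean levels was Cdkn2a, Cdkn1b, Cdkn1a, Cdkn2c, Cdkn2b, Cdkn2d and Cdkn1c. Cdkn1a and Cdkn2c overlapped between samples in that order, since 18.1 FPKM of the one lay under 19.0 FPKM of the other. In resting cells the order was Cdkn1b, Cdkn2d, Cdkn2c, Cdkn1a, Cdkn2b, Cdkn1c and Cdkn2a, and the values of Cdkn2b and Cdkn1c overlapped. These sums, shares and orders leave out the second Cdkn2d row, at 3.95 and 4.01 FPKM in activated and 7.46 and 10.5 FPKM in resting cells. Adding it would raise the INK4 sums, lower the shares of the other members and place Cdkn2d above Cdkn2b in activated cells.

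**Figure D2:**
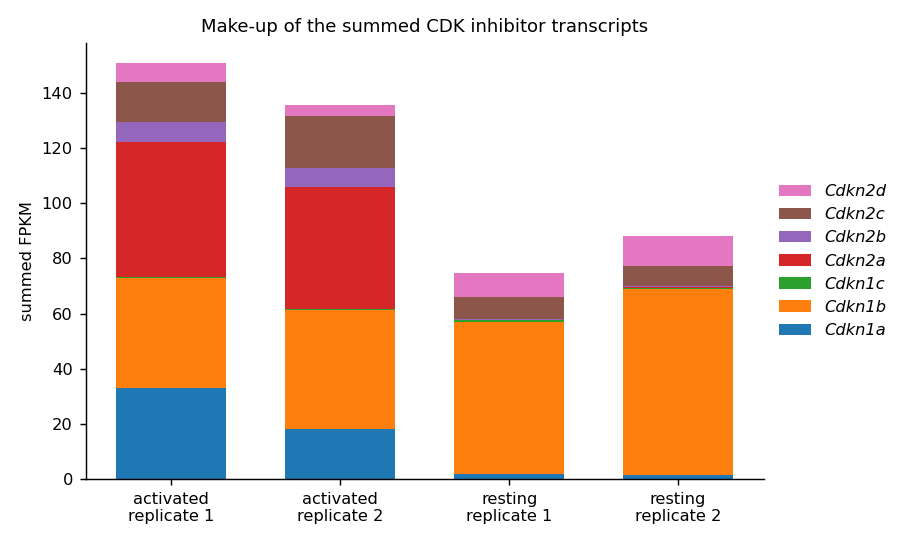
Summed FPKM of the 7 CDK inhibitor genes in each sample, activated on the left, split by gene, with the first row of Cdkn2d alone. In the activated bars Cdkn2a, Cdkn1b, Cdkn1a and Cdkn2c share most of the sum, while in the resting bars Cdkn1b alone takes 73.9% and 76.8%.

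By the Euclidean distance of log2(FPKM + 1) over the 4 samples, the genes most like Cdkn2a were Vegfa (distance 0.69), Slc7a3 (0.875) and Chac1 (0.896). Vegfa, a growth factor for blood vessels, had 44.3 and 40.1 FPKM in activated cells and 0.592 in each resting sample. The genes most like Cdkn1a were Psrc1 (0.57), Bbc3 (0.71) and Il2ra (0.732). Bbc3, which encodes the cell death protein PUMA, had 31.7 and 25.4 FPKM in activated cells and 1.74 and 2.56 FPKM in resting cells. With 4 samples, likeness says only that levels were close in both groups.

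Markers of other cells moved with the groups. The summed level of 9 macrophage genes was 3.79 and 11.5 FPKM in activated cells, against 520.0 and 871.0 FPKM in resting cells, with the defining markers C1qa and C1qb at 0 in either activated sample. The 6 erythroid genes summed to 14.6 and 5.35 FPKM in activated and 1372 and 9093 FPKM in resting cells. The 7 B cell genes summed to 4398 and 3447 FPKM in activated and 7759 and 8562 FPKM in resting cells. The 7 plasma cell genes summed to 1895 and 2140 FPKM in activated and 135.0 and 186.0 FPKM in resting cells, with Prdm1, the master regulator of plasma cells, at 61.3 and 75.8 against 1.23 and 1.26 FPKM (log2 difference 4.94, adjusted p = 1.58e-05). In activated cells most of that sum was Igj, the joining chain of antibodies, at 1173 and 1255 FPKM, against 35.8 and 76.6 FPKM in resting cells. The surface marker Sdc1 did not pass the test (2.16 and 5.17 against 3.46 and 3.76 FPKM, adjusted p = 0.876), and Tnfrsf17, under 1 FPKM in all samples, was not tested. The sums for T cells (2.56 and 1.61 against 22.1 and 30.1 FPKM), natural killer cells (1.01 and 0.392 against 6.67 and 22.2 FPKM) and neutrophils (0 and 0.212 against 1.4 and 25.9 FPKM) were also lower in activated than in resting cells. The 6 endothelial and stromal genes summed to 25.7 and 17.7 FPKM in activated and 67.9 and 55.7 FPKM in resting cells, of which Pecam1 alone made 25.2 and 17.4 against 67.2 and 55.1 FPKM, and the other 5 lay under 1 FPKM in every sample. Their part in the values of the CDK inhibitors, the lower ones of Cdkn1b and Cdkn2d included, was not tested. Nor was it tested for the other genes below, such as Ccnd1, which was under 1 FPKM in activated cells alone.

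The kinases and cyclins that the inhibitors act on were mostly higher in activated cells. Of 13 genes tested in this list 10 rose, 1 fell and 2 did not pass the test. The list also holds Pcna, which is neither a kinase nor a cyclin and is among the 10 that rose (1.79, adjusted p = 0.0072). The median log2 difference of the list was 1.79, which is the value of Pcna itself, beside 0.0302 over all genes tested. Among all genes tested 28.2% were called higher and 26.2% lower, the shares to set beside this and the following lists. The mitotic and S phase cyclins led the list. Ccna2 rose to 71.3 and 113.0 FPKM in activated cells, against 4.76 and 7.58 FPKM in resting cells (log2 difference 3.69 ± 0.28, adjusted p = 0.000149). Ccnb1 rose by 3.67 (adjusted p = 0.000167) and Ccnb2 by 3.55 (adjusted p = 0.000126) on the log2 scale.

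Among the INK4 targets, Cdk4 had 118.0 and 148.0 FPKM in activated cells and 40.9 and 44.3 FPKM in resting cells, a rise of 1.61 (adjusted p = 0.000971). Cdk6 was far lower, at 5.25 and 8.64 FPKM in activated and 3.65 and 2.65 FPKM in resting cells (0.92, adjusted p = 0.0197), and its call was lost without resting replicate 2 or activated replicate 2 and without a filter. The D-type cyclins, partners of both kinases, went separate ways. Ccnd2 rose to 102.0 and 181.0 FPKM in activated cells, against 17.8 and 16.5 FPKM in resting cells (2.91, adjusted p = 0.000345). Ccnd1 was at 0.37 and 0.382 FPKM in activated cells and 13.6 and 15.6 FPKM in resting cells (-3.50, adjusted p = 4.34e-05), though without either resting replicate the filter left it out. Ccnd3 had 25.7 and 32.9 FPKM in activated and 23.8 and 33.4 FPKM in resting cells (0.05, adjusted p = 0.874). Cdk2, the kinase that p21 and p27 restrain, had 36.3 and 37.4 FPKM in activated and 27.5 and 28.8 FPKM in resting cells and did not pass the test (0.38, adjusted p = 0.0801).

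Downstream of these kinases lie the pocket proteins of the RB family and the E2F factors they bind. Of 13 genes 9 rose, 1 fell and 3 did not pass the test, with a median log2 difference of 0.91. Tfdp1, the usual partner of E2F factors, rose by 2.80 on the log2 scale (41.2 and 49.8 FPKM in activated, 5.74 and 5.57 FPKM in resting cells, adjusted p = 6.48e-05). E2f8, a repressive E2F, rose by 2.56 (adjusted p = 0.000147) and E2f1, an activating one, by 1.68 (adjusted p = 0.000426). Tfdp2, another partner, fell by 0.75 (adjusted p = 0.0142), a call lost without resting replicate 2. Of the 10 calls 5 held whichever library was left out.

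For p27, genes that govern its transcription or its breakdown did not share a direction. Of 13 genes 3 rose, 3 fell and 7 did not pass the test (median log2 difference 0.36). These counts lie near the shares of all genes tested, 28.2% higher and 26.2% lower, so nothing about p27 is read from them. FOXO factors activate Cdkn1b, and Foxo1 fell to 26.2 and 27.9 FPKM in activated cells, against 54.4 and 49.9 FPKM in resting cells (-0.92, adjusted p = 0.00381). Foxo4 fell as well (-0.90, adjusted p = 0.0023), while Foxo3 did not pass the test (-0.01, adjusted p = 0.952). Cks1b, the cofactor with which the Skp2 ubiquitin ligase recognises p27, rose to 94.7 and 159.0 FPKM in activated cells, against 6.98 and 8.04 FPKM in resting cells (3.87, adjusted p = 9.71e-05). Skp2 itself had 3.86 and 6.79 FPKM in activated and 2.47 and 2.42 FPKM in resting cells (0.84, adjusted p = 0.0251), a call lost without either resting replicate, without activated replicate 2, without a filter and with the stricter filter. Ddb1, a part of CUL4 ligases, rose by 1.10 (adjusted p = 0.00407). Rnf123, the ligase subunit KPC1 that acts on p27 in the cytoplasm, fell by 0.69 (adjusted p = 0.00924), a call lost without either resting replicate.

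For p21, the list of p53 and its targets held 18 tested genes, of which 12 rose, 3 fell and 3 did not pass the test, with a median log2 difference of 1.05. Phlda3, an inhibitor of AKT, rose by 3.26 (15.4 and 8.71 FPKM in activated, 0.132 and 0.539 FPKM in resting cells, adjusted p = 0.000241), though without either activated replicate the filter left it out. Bbc3 rose by 3.23 (adjusted p = 7.5e-05). Sesn2, a stress-induced sestrin, rose by 2.38 (adjusted p = 8.97e-05). Against them, Sesn1, another sestrin, fell to 22.4 and 13.2 FPKM in activated cells, against 55.2 and 71.2 FPKM in resting cells (-1.80, adjusted p = 0.00188). Rrm2b, a subunit of ribonucleotide reductase, fell by 1.05 (adjusted p = 0.00135). Btg2, an antiproliferative gene, fell by 0.71 (adjusted p = 0.0211), a call lost without either resting replicate or activated replicate 1.

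Trp53, which encodes p53, had 66.8 and 71.4 FPKM in activated and 45.7 and 42.1 FPKM in resting cells (0.64, adjusted p = 0.0202). That call was lost without either resting replicate, without activated replicate 2 and with quantile normalization. Mdm2, both a target and the main ligase of p53, had 49.1 and 44.5 FPKM in activated and 28.8 and 25.4 FPKM in resting cells (0.77, adjusted p = 0.00904), a call lost without resting replicate 2. Of the 15 calls in the p53 list 8 held whichever library was left out.

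Polycomb proteins keep the Cdkn2a and Cdkn2b region silent in many cells. Of 20 tested genes in the list of these and other regulators of the region, 6 rose, 10 fell and 4 did not pass the test, with a median log2 difference of -0.42. The 16 calls became 7 without resting replicate 1 and 7 without resting replicate 2. Ezh2, the methyltransferase of Polycomb complex PRC2, rose to 43.3 and 54.7 FPKM in activated cells, against 6.78 and 7.06 FPKM in resting cells (2.65, adjusted p = 8.55e-05), and Suz12, its core partner, rose by 1.16 (adjusted p = 0.00357). Ezh1, the other methyltransferase, fell to 5.9 and 5.11 FPKM in activated cells, against 18.1 FPKM in each resting sample (-1.56, adjusted p = 0.000319).

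Among the other regulators, Cbx7, a PRC1 subunit known to repress Cdkn2a, fell to 22.4 and 23.5 FPKM in activated cells, against 85.0 and 87.8 FPKM in resting cells (-1.87, adjusted p = 0.00025). Kdm6b, a demethylase that removes the PRC2 mark, fell by 1.46 (adjusted p = 0.00116). Bmi1, a PRC1 subunit best known for repressing Cdkn2a, had 13.4 and 13.3 FPKM in activated and 15.1 and 18.2 FPKM in resting cells and did not pass the test (-0.29, adjusted p = 0.156).

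TGF-beta signals raise Cdkn2b and Cdkn1a in many cells through SMAD factors. Of 9 genes in that list 1 rose, 6 fell and 2 did not pass the test (median log2 difference -0.77), and the 7 calls became 3 without resting replicate 2. The receptor Tgfbr2 fell by 1.05 (39.2 and 32.9 FPKM in activated, 75.9 and 74.7 FPKM in resting cells, adjusted p = 0.0034). The inhibitory Smad7 fell by 1.02 (adjusted p = 0.00236). The ligand gene Tgfb1 fell by 0.96 (adjusted p = 0.00699), a call lost without resting replicate 1. Myc, which represses Cdkn2b together with MIZ1, rose by 0.94 (adjusted p = 0.0056), a call lost without resting replicate 2.

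Of 4 tested genes next to Cdkn2a or known as partners of p19Arf, 2 rose and 2 did not pass the test. Npm1, the nucleolar protein that holds p19Arf, rose to 312.0 and 362.0 FPKM in activated cells, against 82.2 and 101.0 FPKM in resting cells (1.87, adjusted p = 0.000825). Mtap, an enzyme of methionine salvage whose gene lies beyond Cdkn2a, rose to 30.3 and 36.2 FPKM in activated cells, against 11.8 and 12.4 FPKM in resting cells (1.38, adjusted p = 0.000697).

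**Figure D3:**
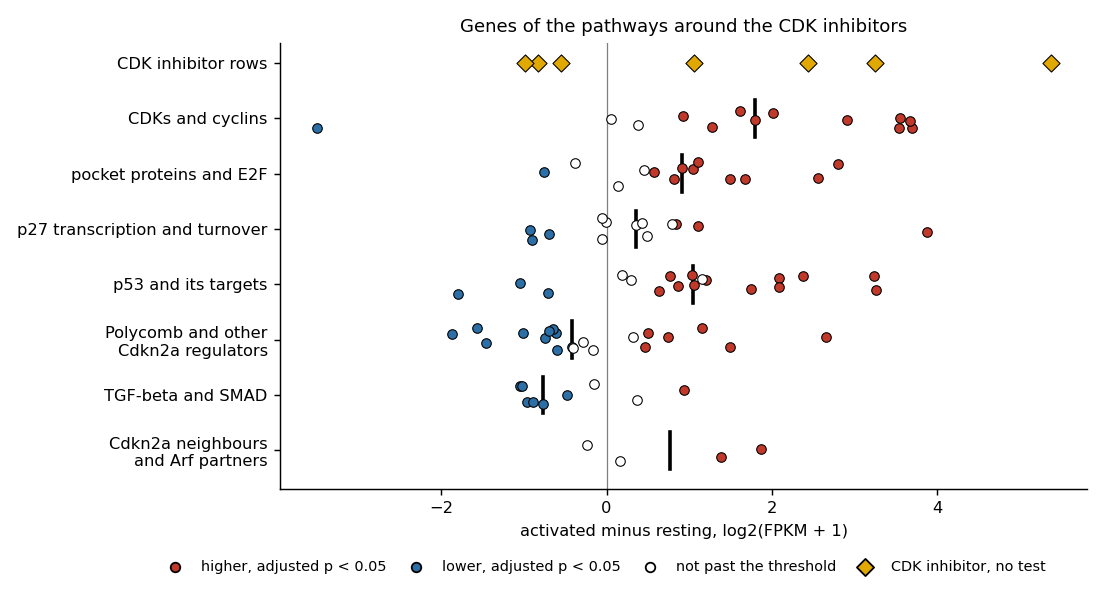
Activated minus resting difference of log2(FPKM + 1) for each tested gene of the 7 pathway lists, with a bar at the list median, and for the 7 CDK inhibitor rows that passed the filter (diamonds, no test). The CDK and cyclin list, which includes Pcna, has a median of 1.79 and the TGF-beta and SMAD list one of -0.77. The diamonds reach from -0.99 to 5.37.

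In activated cells promoter marks lay at the 5′ ends of the expressed members, apart from Cdkn2d. Within 1 kb of the 5′ end of the gene span (mm9), H3K4me3, a mark of active promoters, and H3K27ac, a mark of active promoters and enhancers, each had a peak at 5 of the 6 members with a known strand (Cdkn1a, Cdkn1b, Cdkn2a, Cdkn2b and Cdkn2c). Open chromatin was listed there for 4 of the 6, all but Cdkn1a and Cdkn2d. Of 8099 tested genes with a strand 89.2% had an H3K4me3 peak there, 85.8% an H3K27ac peak and 87.8% a FAIRE peak, so such peaks are usual for expressed genes. Among 8429 genes under 1 FPKM in both activated samples the shares were 18.9%, 8.35% and 14.0%.

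At Cdkn2a (chr4:88920377-88940523, minus strand) 3 regions carried H3K4me3. The first, from 1.8 kb before to 1.8 kb after the 5′ end, covered the p19Arf start, where H3K27ac and 2 FAIRE peaks lay as well. The second lay inside the gene, 12.1 to 13.0 kb from the 5′ end. RefSeq places the p16 start 12427 bases after the p19Arf start, in a gene of the same length of 20147 bases, so this peak spans the place of the p16 start. No H3K27ac, FAIRE or STARR peak overlapped it. The third, at the 3′ end 20.2 to 22.7 kb away, held H3K27ac, FAIRE and a STARR peak.

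At Cdkn1a (chr17:29227931-29237667, plus strand) both RefSeq starts, 2790 bases apart, had their own H3K4me3 and H3K27ac peaks. The upstream H3K4me3 peak ran from 0.2 kb before to 1.5 kb after the 5′ end and the downstream one from 2.3 to 5.0 kb after it. A FAIRE peak lay at 2.6 to 2.9 kb, at the place of the downstream start with 23 CpG, and none within 1 kb of the upstream start with its p53 decamers.

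Cdkn2b (chr4:88952198-88956941, minus strand) was the only member with a STARR peak within 1 kb of the 5′ end, from 0.2 kb before to 0.1 kb after it, overlapping H3K4me3, H3K27ac and FAIRE peaks. Among tested genes with a strand 50.9% had a STARR peak there, and the number of members with one was 3 within 2.5 kb. The STARR peak covered most of the place of the window printed for Cdkn2b. STARR peaks lay within 10 kb of the span in 5 members, and in 73.2% of tested genes with a strand. Those of Cdkn1a were 3, at 11.9 to 16.2 kb after the 5′ end and past the 3′ end, each in the list of STARR peaks in FAIRE peaks. Cdkn1b had a STARR peak 1.7 kb before and another 8.3 kb after its 5′ end. Cdkn2c had 2, at 2.0 and 12.2 kb after it, neither in a FAIRE peak. Cdkn2a had 2, at 9.3 and 21.7 kb after it.

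At Cdkn2c (chr4:109333481-109337977, minus strand) H3K4me3 ran from 2.4 kb before to 1.6 kb after the 5′ end. It covered the place of the upstream RefSeq start, 1384 bases before, where a FAIRE peak lay at 1.3 to 1.6 kb. At Cdkn1b (chr6:134870419-134875543, plus strand) H3K4me3 ran from 0.9 kb before to 3.9 kb after the 5′ end, with 14 FAIRE peaks within 10 kb of the span. Some of these lie toward 1190002F15Rik, whose span begins 3566 bases away and which had 33.8 and 55.5 FPKM in activated and 3.72 and 6.09 FPKM in resting cells. None of the 48 super-enhancers, which are long H3K27ac domains, lay within 50 kb of any member. Absence within 10 kb of the span is usual, since 0.716% of tested genes with a strand had one there. The share within 50 kb was not worked out.

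The first row of Cdkn2d had no peak of any list within 10 kb, although its RNA was at 6.54 and 3.84 FPKM in activated cells. Before its 5′ end the nearest H3K27ac peak was 17.4 kb and the nearest H3K4me3 peak 18.1 kb away. After the 5′ end they were 25.2 and 24.9 kb away. The gap also holds Kri1, 494 bases from Cdkn2d, which had 13.7 and 10.6 FPKM in activated and 19.1 and 18.2 FPKM in resting cells and no peak within its span or within 1 kb of its 5′ end. Around the other Cdkn2d row the lists held 2 FAIRE peaks within 10 kb and no histone mark. Whether the 2 rows are copies of each other, and whether that bears on this gap, was not tested. Cdkn1c (chr7:150644244-150646955), low in RNA, had 1 FAIRE peak at an end of its span and no histone mark within 10 kb.

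The deposited Hi-C list gives contacts between pairs of regions in activated cells, pooled over replicates, with a read count and the authors' z-score. By its name the list was filtered for enhancer and promoter interactions. A peak at an anchor, a number of contacts or a missing contact can therefore reflect that filter. It holds 27903 contacts with a median of 7 reads and a median z-score of 4.19, and its bins of 500 to 5000 bases overlap, so that several contacts can describe the same pair of places. Contacts with an anchor within 10 kb of the span numbered 30 for Cdkn1b, 10 for Cdkn2b, 8 for Cdkn2c, 3 for Cdkn2a, 2 for Cdkn2d, 1 for Cdkn1a and 0 for Cdkn1c. Tested genes with a strand had a median of 5.0, and 85.5% had at least 1. With no replicates in the list, no difference between members was tested.

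Cdkn2a and Cdkn2b both contacted Mtap (chr4:88783274-88826994), the next gene on the far side of Cdkn2a. All 3 Cdkn2a contacts went there, at 135 to 137 kb. An anchor over the H3K4me3 peak at the p16 start joined a place inside Mtap with 17 reads and a z-score of 6.36, and a narrower bin gave 7 reads and 8.08. That place, 9.0 to 9.3 kb after the 5′ end of Mtap, held a STARR peak (chr4:88792285-88792585) and a FAIRE peak, with H3K27ac at 8.1 to 8.8 kb. The third contact joined the cluster at the 3′ end of Cdkn2a to the Mtap promoter with 8 reads. No listed contact had an anchor at the p19Arf start.

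Cdkn2b reached the same Mtap places from its own start. A 5 kb bin over the STARR peak inside Mtap joined the Cdkn2b start at 163 kb with 89 reads and a z-score of 5.03. These were the most reads of any contact between a member and a place away from it, though bins differ in width and distance. A bin of 1000 bases over the same STARR peak gave 5 reads and a z-score of 5.39 at 164 kb. The Mtap promoter was joined in 3 nested bins, at 174 to 175 kb, with 11, 6 and 5 reads. A further STARR peak inside Mtap, 20.6 to 20.9 kb after its 5′ end, was joined with 14 reads at 153 kb. Both INK4 genes and Mtap were at higher FPKM in activated than in resting cells, as given above, and the contact list covers activated cells alone.

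**Figure D4:**
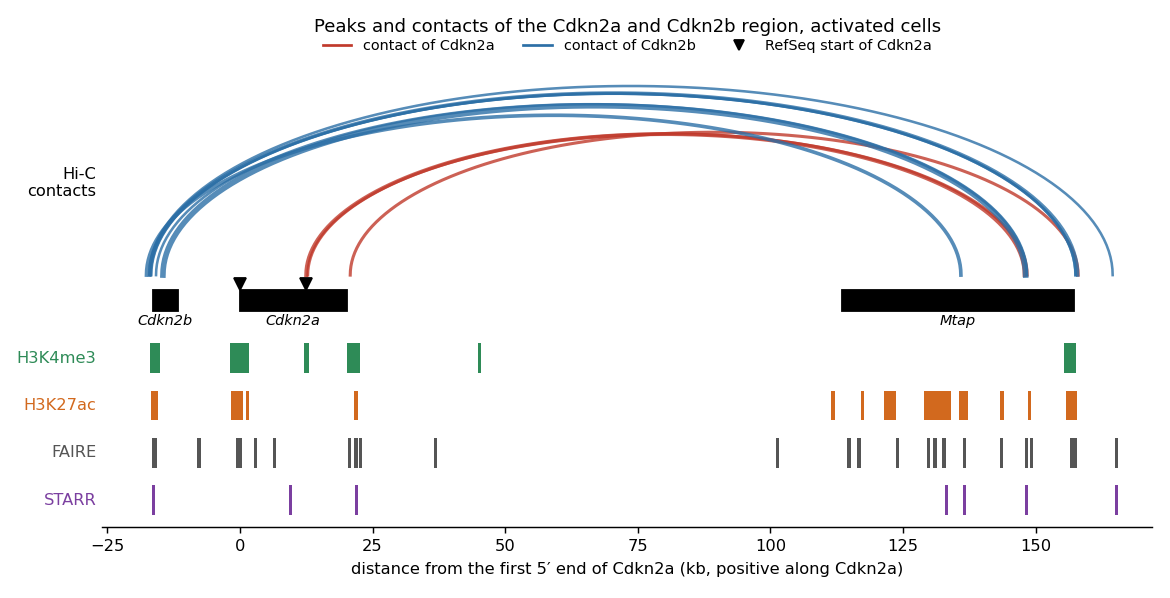
Peaks of 4 lists and Hi-C contacts (arcs, wider with more reads) around Cdkn2a, Cdkn2b and Mtap in activated cells, by distance in kb from the first 5′ end of Cdkn2a. Arcs from the Cdkn2b start and from the p16 start of Cdkn2a end at the same STARR peak inside Mtap near 148.1 kb.

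Cdkn1b had the most contacts of the family, 30, a number that 188 of 8099 tested genes with a strand reached or passed. In 29 of them the other anchor was away from the gene, and 19 of the 29 were at 3 Mb or more, a class that makes up 10.6% of all listed contacts. The reads were few, 5 to 12 each, with 6 or fewer in 21 of the 29. Of the 30, 17 touched the Cdkn1b span itself, and the others touched its surroundings, which include 1190002F15Rik.

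The other anchors were grouped along chromosome 6. A group of 12 lay 5.59 to 6.57 Mb before Cdkn1b (chr6:128302789-129287050), with 5 to 9 reads each. It includes Cd69, an early activation antigen, with a z-score of 16.0 and 72.9 and 69.9 FPKM in activated against 35.5 and 42.5 FPKM in resting cells (log2 difference 0.86, adjusted p = 0.00782), a call lost without resting replicate 1. It also includes Clec2d, a lectin-like receptor gene, which fell by 1.00 (adjusted p = 0.0168), a call lost without resting replicate 2 or activated replicate 2. A group of 8 lay 1.54 to 1.91 Mb after the gene, with 5 to 12 reads. Another 6 lay 7.99 to 14.81 Mb before it.

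Of 23 genes at the other anchors of Cdkn1b, 20 were tested, of which 8 rose, 6 fell and 6 did not pass the test. Over all genes tested 28.2% were called higher and 26.2% lower, and nothing is read from this mix. Rad51ap1, a DNA repair gene at 7.99 Mb, rose by 3.08 (adjusted p = 0.000107) and Ncapd2, a condensin subunit gene at 9.74 Mb, by 2.64 (adjusted p = 0.000201). Bcl2l13 at 14.09 Mb rose by 0.47 (adjusted p = 0.0333), a call lost without either resting replicate, without activated replicate 2 and without a filter, and Necap1 at 12.05 Mb had -0.05 (adjusted p = 0.799). Ninj2, at the farthest anchor, was listed at 0 and 0.149 FPKM in activated cells and at 0 in both resting samples.

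Cdkn2c had 8 contacts, of 5 to 9 reads, from 0.17 to 7.10 Mb, the farthest at Pde4b, a phosphodiesterase gene that fell by 1.17 (adjusted p = 0.00193). Of the 8, 5 touched the Cdkn2c span. The others, at 0.17 and 2.01 Mb, had anchors over a separate H3K4me3 peak 10.3 to 12.6 kb before its 5′ end. The contact of Cdkn1a joined a bin just before the gene, which held no peak, to Mtch1 at 262 kb with 14 reads. Mtch1 had 22.8 and 33.2 FPKM in activated and 21.2 and 27.2 FPKM in resting cells (0.19, adjusted p = 0.501). Cdkn2d had 2 contacts, with 30 reads at 65 kb and 8 reads at 834 kb, from anchors without any peak. Both anchors lie mostly on Kri1 and include its 5′ end, and they touch Cdkn2d only at its 3′ end. These contacts therefore cannot be assigned to Cdkn2d rather than Kri1.

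**Figure D5:**
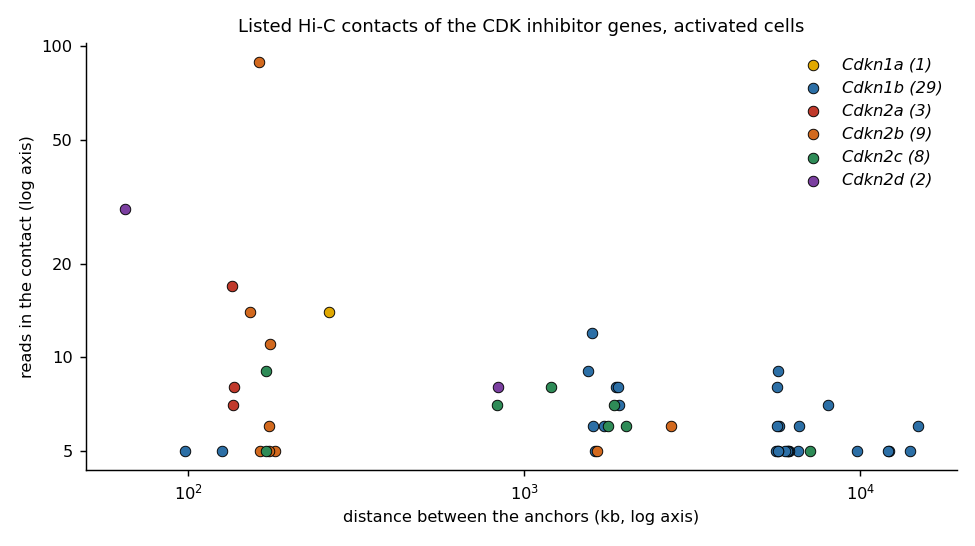
Reads in each listed Hi-C contact against the distance between its anchors (both axes log), for contacts that leave the gene, by CDK inhibitor gene with the number of contacts in brackets. The Cdkn2a and Cdkn2b contacts with the most reads, 17 and 89 in bins of 2000 and 5000 bases, lie at 135 and 163 kb. Most Cdkn1b contacts lie beyond 1 Mb with 5 to 12 reads.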

How the data were processed

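RNA-seq values of 2 activated and 2 resting B cell samples were taken as deposited. The authors' table names no unit. The deposited numbers are fractional and sum to 244602 to 287884 per sample, and were read as FPKM. Neither read totals nor a strand are given, which leaves the depth of each value unknown. The submitters' processing notes name Bowtie, Bowtie2, TopHat2, STAR, HOMER, bedtools and the mm9 build, without roles or versions. Per the labels, 1 peak list stands for each of FAIRE-seq, STARR-seq (reporter run for 12 and 24 h), H3K27ac and H3K4me3, without scores, so replicates cannot be compared. The Hi-C list holds a read count per contact, over replicates pooled by the authors, and a z-score, used as deposited to describe contacts. H3K4me1, nascent RNA and resting ChIP-seq were not analysed here.

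Genes with at least 1 FPKM in at least 2 samples were fitted together on log2(FPKM + 1) in limma 3.58.1 under R 4.3.3, using its trend and robust options and no block. A gene was called at a Benjamini-Hochberg adjusted p below 0.05. The fit was tested on simulated data. Differences on this scale understate the change of low genes. The 4 samples correlated at r = 0.974 within the activated and 0.981 within the resting group, and at 0.744 to 0.79 between groups, across genes. The members and the gene lists were chosen with earlier results of these data known. Named genes were all members, up to 3 called genes per list and direction with the largest difference, 12 regulators set by name (Trp53, Mdm2, Skp2, Foxo1, Bmi1, Ezh2, Cdk4, Cdk6, Cdk2, Ccnd2, Ccnd3 and Prdm1), the 3 genes nearest to Cdkn2a and to Cdkn1a, and up to 8 genes per member at the other anchor of contacts. A gene that this rule picks is not reported here. The tables and peaks were handled with Python 3.11.15 and pandas 2.3.3. Spans of the RNA table count from 0 (end minus start equals the RefSeq length in 9171 of 21278 genes, against 557 for the other reading) and are printed 1-based, as are peaks. Promoter sequences are RefSeq windows (GRCm38.p6). The positions of alternative starts were set beside mm9 peaks only as distances within a gene. Alternatives tried were other pseudocounts, filters, scalings, a replicate block, leaving out each library, and other windows around genes.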

Additional observations from a re-analysis of the deposited data

How the results depend on the processing

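Without 1 library at a time, 2964 (without resting replicate 1) to 5693 genes were called, against 5910 with all 4. The Polycomb list then had 7 (without resting replicate 1 or 2) to 15 calls, against 16, and the TGF-beta list 3 (without resting replicate 2) to 8, against 7. The cause was not tested, beyond the fewer samples. A STARR peak near the 5′ end was found at 3 members within 2.5 kb, against 1 within 1 kb, and in the span alone 3 members had a STARR peak, against 5 within 10 kb. No CDK inhibitor's log2 difference changed sign under the alternatives run. The balance of calls over all genes did turn: 3066 genes were higher and 2844 lower, but 2865 and 3027 without a filter, 2949 and 3128 with samples scaled to their median, 3003 and 3117 with quantile normalization, and 2266 and 2400 without activated replicate 2. The median difference of all genes was 0.0302, and -0.00993, -0.0283, -0.0235 and -0.0147 in these settings. The pseudocount set the size of the differences of low members: Cdkn2a had 7.54 with 0.1 and 3.32 with 5, Cdkn1a 3.79 and 2.15, and Cdkn2b 3.64 and 1.13. Same-numbered samples deviated together at r = 0.124 with 2 pairs, which does not settle a pairing. With the replicate block 6281 genes were called, and the block called the same 4 members higher and 2 lower. Depth is unknown, and Hi-C contacts rest on a median of 7 reads.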
